A study of Rattus norvegicus with 14 samples.

Results

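The genes described here are 10 markers of the blood vessels of the choroid plexus (CP): 7 markers of endothelial cells (Pecam1, Cdh5, Kdr, Flt1, Tek, Vwf and Plvap) and 3 of mural cells (Pdgfrb, Rgs5 and Acta2). They were found on the array through the accession that each probe carries, and the brightest probe stood for its gene. Of the 10 genes, 9 were matched to a probe, 6 endothelial and 3 mural, among 15154 genes measured by name; no probe was matched to Vwf, which was not analysed here. Each of the 9 had 1 probe, which was well above background and not saturated on all 14 arrays.

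RNA from the lateral ventricle CP of Wistar rats was hybridised to 1-colour (Cy3) Agilent arrays, each array holding 1 pool of RNA from 3 animals. The rats were operated at 2 months of age and killed 2 weeks later, and the groups were ovariectomized (OVX) females (n = 3 arrays), sham-operated females (n = 3), orchidectomized (OOX) males (n = 4) and sham-operated males (n = 4). The comparisons ask how the CP transcriptome differs when the gonads, and the hormones they release, are removed in each sex. No hormone was given back, the tissue was whole CP, and the methods name 3 pools in a group where the labels give 4 in males, so p-values measure the spread between these pools, whose independence is not settled by the sources.

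Endothelial cells line the capillaries of the CP stroma, which lie under the secretory epithelium. Unlike most brain capillaries they are fenestrated, with pores closed by diaphragms built from PLVAP, and the tight barrier lies instead in the epithelium. Vascular endothelial growth factor (VEGF), which the epithelium secretes, maintains these fenestrations through the receptor KDR, and pericytes and smooth muscle cells wrap the vessels from outside. All values below are log2 signals over the median of the array, so that 1 unit is a 2-fold ratio, and values are compared between arrays for 1 gene and not between genes. In bulk tissue, fewer cells of a type and less RNA per cell cannot be told apart.

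The epithelial genes Ttr, Folr1, Kcnj13 and Enpp2 were saturated on all 14 arrays, so the defining markers of the labelled tissue were present. Correlations between arrays of a group across genes, which are not independent, were 0.974 to 0.992. The arrays were spread over 5 slides and 2 scan days. The first day held 4 of the 6 female arrays, all sham pools and 1 OVX pool (replicate 1), and the second held the other 10 arrays. Scan day thus largely overlaps with group in females. Slide largely overlaps with group in males, where OOX replicates 1 to 3 were on a slide that held no sham male pool. An array that stood apart was OOX replicate 2. On it 10 of 11 smooth muscle contractile genes and 6 of 10 genes of blood-brain barrier endothelium were above all other arrays. OOX replicate 3 had the lowest value of 4 of the 9 markers. The differences of the 9 markers in males are therefore given with and without OOX replicate 2.

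In females, none of the 9 markers passed an adjusted p of 0.05 (limma, Benjamini-Hochberg adjusted across the whole array), where 6.22% of the 15154 genes did. The markers were split: Acta2 and Tek lay above the sham range in all 3 OVX pools, Rgs5 and Kdr below it in all 3, and the other 5 overlapped. At an unadjusted p under 0.05 stood 3 of the 9 (Acta2, Rgs5 and Tek), against 19.9% of all genes, and 4 of 9 had groups that did not overlap, against 27.6%. Both are small counts beside a large background. The median difference of the 9 was 0.04, with 5 above 0 and 4 below, and that of all genes was -0.07.

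Acta2, the smooth muscle actin of arterioles and contractile pericytes, measured 1.57, 1.58 and 1.19 in OVX females, against 0.80, 0.99 and 0.92 in sham females. The lowest OVX pool was above the highest sham pool. The difference was 0.54 (SE 0.15, 95% interval 0.17 to 0.92), a 1.46-fold ratio, with an adjusted p of 0.092 that missed the threshold. Among the alternatives run the difference stayed between 0.42 and 0.67, with an adjusted p of 0.058 to 0.53.

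Rgs5, a regulator of G protein signalling that marks pericytes, measured 2.73, 2.36 and 2.64 in OVX females, against 3.36, 2.99 and 2.95 in sham females. All 3 OVX pools were below all 3 sham pools. Its difference was -0.52 (SE 0.17, interval -0.94 to -0.10, adjusted p = 0.14). Acta2 and Rgs5 thus had differences of opposite sign in the same pools, while the third mural marker, the PDGF receptor Pdgfrb, differed by 0.05 (SE 0.26). Pdgfrb was spread over 3.38, 3.29 and 2.49 in OVX females, against 3.14, 2.85 and 3.03 in sham females, and OVX replicate 3 alone lay below the sham pools. Its interval, -0.58 to 0.67, leaves room for a change of either sign.

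The promoter of Acta2 is shown because Acta2 had the largest difference of the 9 in females and the widest range over the 14 arrays, 1.98 log2 units. Smooth muscle genes carry CArG boxes, elements that bind serum response factor with its coactivator myocardin and read CC, a run of 6 A or T, and GG. The window holds 300 bases of RefSeq's GRCr8 assembly, chr1:241172454-241172753 on the minus strand, 250 before the annotated start and 50 after it. Capitals mark matches to the box with at most 1 mismatch.
Acta2: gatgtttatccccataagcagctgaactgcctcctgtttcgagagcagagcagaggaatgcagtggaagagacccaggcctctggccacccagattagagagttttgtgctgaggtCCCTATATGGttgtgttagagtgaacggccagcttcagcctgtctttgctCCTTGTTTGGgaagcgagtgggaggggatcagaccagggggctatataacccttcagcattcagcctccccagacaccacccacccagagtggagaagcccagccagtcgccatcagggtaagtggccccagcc
The matches, CCCTATATGG and CCTTGTTTGG, begin at -134 and -84 and each differ from the box at 1 base. With 1 mismatch allowed, on both strands, 21.3% of 33469 rat promoters of this length held at least 1 match, and among the 5 marker promoters in the RefSeq table (Kdr, Flt1, Plvap, Rgs5 and Acta2) Acta2 held 2, Kdr 1 and the other 3 none. The exact box was in 1.64% of all promoters and in none of the 5. The palindromes of the estrogen response element (GGTCA, 3 bases and the reverse complement) and of the androgen response element (AGAACA, 3 bases and the reverse complement) were in 0.0269% and 0.0149% of all promoters and in none of the 5, which says only that these letters are not in the windows. No 2 motifs overlapped in a marker promoter.

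Among the endothelial markers in females, Tek, the angiopoietin receptor, measured -1.98, -1.75 and -1.998 in OVX females, against -2.13, -2.30 and -2.51 in sham females. The groups did not overlap, and the difference was 0.41 (SE 0.15, adjusted p = 0.18). Kdr, the main signalling receptor for VEGF, measured 6.06, 5.89 and 5.88 in OVX females, against 6.15, 6.17 and 6.15 in sham females. The sham pools were nearly identical, and the OVX pools were all slightly lower, by 0.21 on average (SE 0.12, adjusted p = 0.35). Tek and Kdr, both receptor tyrosine kinases of endothelium, therefore stood on opposite sides of their sham pools.

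Plvap, the diaphragm protein of fenestrae, measured 6.24, 6.53 and 5.87 in OVX females, against 6.62, 6.69 and 6.45 in sham females. OVX replicate 2 lay inside the sham range and the other OVX pools below it. The difference was -0.37 (SE 0.19, interval -0.84 to 0.09, adjusted p = 0.32). Flt1, the VEGF receptor that mostly acts as a decoy, averaged -0.447 in OVX females and -0.445 in sham females, a difference of -0.002 with an interval from -0.41 to 0.41. Of the junctional genes, Pecam1 differed by 0.04 (SE 0.21) and Cdh5, VE-cadherin, by 0.06 (SE 0.14). The interval of Cdh5 was -0.27 to 0.39.

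The promoters of Plvap and Flt1 are shown as the 2 of the 5 marker promoters with matches to AGGAAG, a form of the core to which ETS factors such as ERG and FLI1 bind in endothelial genes. Capitals mark the matches, at -98 and -81 in Plvap (GRCr8 chr16:18231230-18231529, minus strand) and at -172 and -96 in Flt1 (chr12:12333180-12333479, plus strand).
Plvap: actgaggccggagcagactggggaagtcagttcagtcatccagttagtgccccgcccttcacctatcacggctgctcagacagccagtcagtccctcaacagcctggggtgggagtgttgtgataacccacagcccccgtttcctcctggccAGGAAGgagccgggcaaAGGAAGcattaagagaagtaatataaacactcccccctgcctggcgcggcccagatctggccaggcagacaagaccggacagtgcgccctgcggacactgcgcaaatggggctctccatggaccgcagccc
Flt1: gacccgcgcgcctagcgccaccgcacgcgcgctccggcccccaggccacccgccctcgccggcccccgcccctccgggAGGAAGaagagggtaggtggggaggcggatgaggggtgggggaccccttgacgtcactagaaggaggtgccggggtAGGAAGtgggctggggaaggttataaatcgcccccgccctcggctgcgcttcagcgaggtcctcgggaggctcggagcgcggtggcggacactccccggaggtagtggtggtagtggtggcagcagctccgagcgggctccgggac
Each held 2 matches, counted on both strands, and 34.5% of all promoters of this length held at least 1, so the match is common.

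Slide and scan day could be set against these female differences only through few arrays. On the 1 slide that held both groups, OVX replicate 1 minus sham replicate 3 was 0.65 for Acta2, 0.54 for Tek, -0.22 for Rgs5, -0.09 for Kdr and -0.21 for Plvap, single pools with no error. In a fit with a scan day term, which rests on the same OVX pool against the sham pools, Acta2 stood at 0.67 (adjusted p = 0.31), Tek at 0.34, Rgs5 at -0.36, Kdr at -0.09 and Plvap at -0.35. The signs of these 5 markers were those of the fit without the term, and all but Acta2 were closer to 0.

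**Figure D1:**
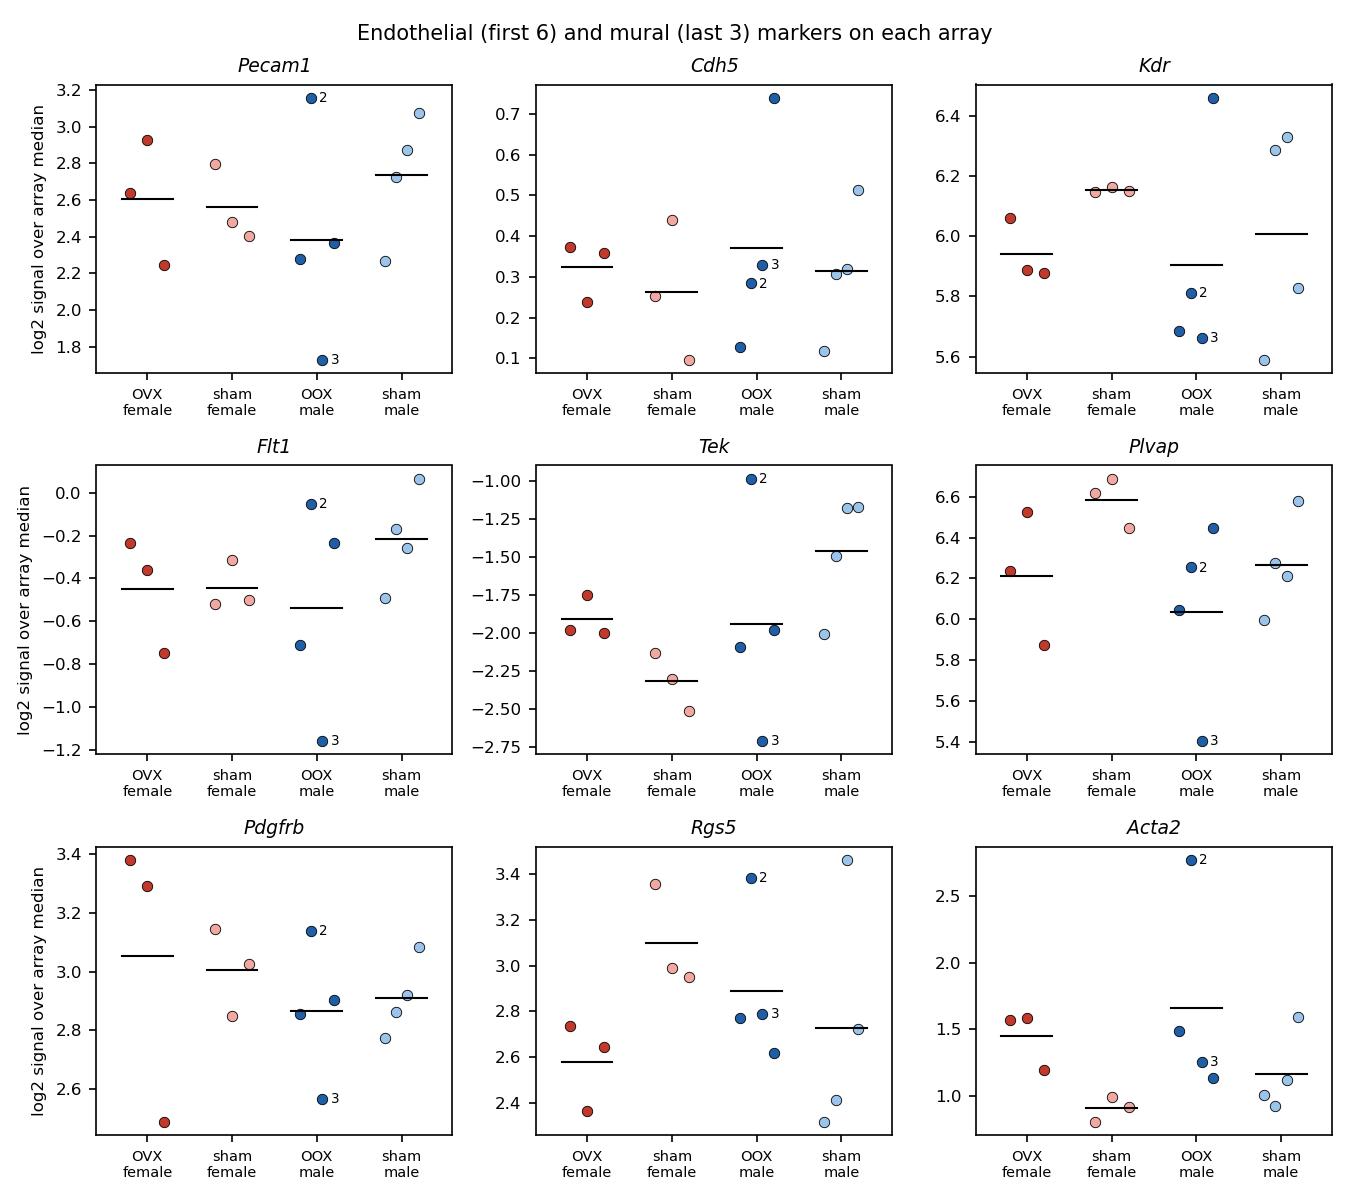
Log2 signal over the array median (y axes, own scale for each gene) of the 9 markers on every array, in OVX females, sham females, OOX males and sham males; points are arrays, lines are group means, and the numerals 2 and 3 mark OOX replicates 2 and 3. In females Acta2 and Tek lie above and Rgs5 and Kdr below the sham pools, in males every marker overlaps, and OOX replicate 2 has the highest Acta2 value, 2.78.

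In males, none of the 9 markers passed, where 0.0858% of genes did (13 of 15154), and OOX and sham pools overlapped for all 9, against 4.01% of genes without overlap. No marker had an unadjusted p under 0.05, against 6.88% of genes, and the lowest adjusted p was 0.85. Of the 6 endothelial markers 5 had differences below 0, and of the 3 mural markers 2 had differences above 0. The median of the 9 was -0.10 and that of all genes 0.02. Without OOX replicate 2, 2 of the 9 (Tek and Pecam1) had an unadjusted p under 0.05, against 7.84% of genes, and the median of the 9 was -0.13, against 0.07 over all genes.

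Tek had the largest difference among the endothelial markers in males. It measured -2.09, -0.98, -2.71 and -1.98 in OOX males, against -2.003, -1.49, -1.17 and -1.17 in sham males. OOX replicate 2 was the highest of the 8 arrays and OOX replicate 3 the lowest. The difference was -0.48 (SE 0.36), -0.80 without OOX replicate 2 (SE 0.27, adjusted p = 0.49) and -0.23 without OOX replicate 3.

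Pecam1, a junctional adhesion molecule of all endothelium, showed the same arrangement. It measured 2.28, 3.16, 1.73 and 2.37 in OOX males, against 2.27, 2.73, 2.88 and 3.08 in sham males. The OOX pools spanned the sham range at both ends, through replicate 2 above and replicate 3 below. The difference was -0.35 (SE 0.31), -0.61 without OOX replicate 2 (SE 0.24, adjusted p = 0.55) and -0.14 without OOX replicate 3. Flt1 differed by -0.33 (SE 0.25), and by -0.49 without OOX replicate 2.

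Plvap, Kdr and Cdh5 had smaller differences in males. Plvap measured 6.05, 6.25, 5.40 and 6.45 in OOX males, against 5.99, 6.27, 6.21 and 6.58 in sham males, a difference of -0.23 (SE 0.24) that rested on OOX replicate 3: without that array it was -0.015, and without OOX replicate 2 it was -0.30. Kdr measured 5.68, 5.81, 5.66 and 6.46 in OOX males, against 5.59, 6.29, 6.33 and 5.83 in sham males. Each group of males held both high and low Kdr pools, and the difference was -0.10 (SE 0.24), and -0.07 without OOX replicate 2. Cdh5 differed by 0.06 (SE 0.17), and by 0.085 without that array, with OOX replicate 4 highest at 0.74 and sham replicate 1 lowest at 0.12.

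Acta2 in males measured 1.49, 2.78, 1.25 and 1.13 in OOX males, against 1.002, 0.92, 1.12 and 1.59 in sham males. The OOX mean was carried by replicate 2. The difference was 0.50 (SE 0.36), and 0.13 (SE 0.19) without that array. Rgs5 measured 2.77, 3.38, 2.79 and 2.62 in OOX males, against 2.32, 2.41, 3.47 and 2.72 in sham males, a difference of 0.16 (SE 0.28) and of -0.002 without OOX replicate 2. Pdgfrb differed by -0.04 (SE 0.15), and by -0.13 without that array. On the 1 slide with both male groups, OOX replicate 4 minus the mean of sham replicates 1 and 2 was -0.23 for Tek, -0.13 for Pecam1 and 0.17 for Acta2, but 0.31 for Plvap and 0.52 for Kdr, opposite in sign to the differences over all pools.

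**Figure D2:**
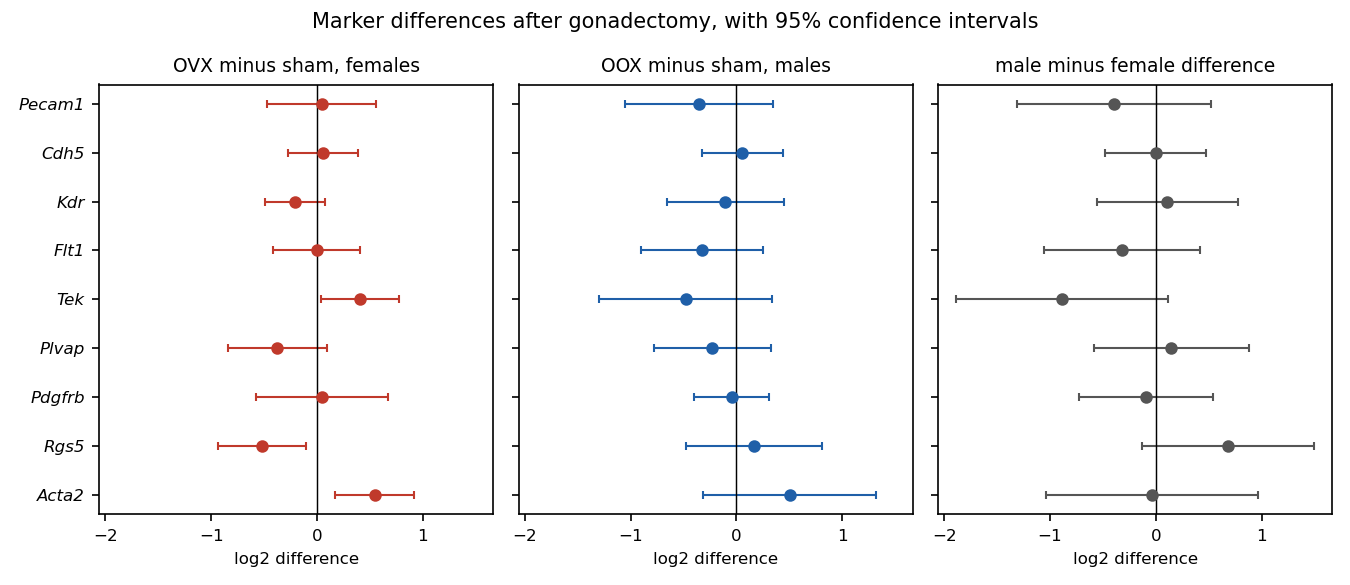
Log2 differences (x axes) of the 9 markers (rows) for OVX minus sham in females, OOX minus sham in males, and the male difference minus the female one, with 95% confidence intervals from limma. In females the intervals of Acta2, Tek and Rgs5 leave out 0 before adjustment, in males and in the difference between the sexes every interval includes 0, and no marker passed after adjustment.

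The difference between the sexes was tested as the OOX minus sham difference less the OVX minus sham difference, over all 14 arrays. None of the 9 markers passed, where 0.251% of genes did (38), and none had an unadjusted p under 0.05, against 10.3% of genes. Without OOX replicate 2 there was 1, against 12.8%. Tek had the largest value, -0.89 (SE 0.46, interval -1.89 to 0.11, adjusted p = 0.49), with OVX pools above and OOX pools on average below their shams. Without OOX replicate 2 it was -1.21 (adjusted p = 0.17). Rgs5 followed with 0.68 (SE 0.37, interval -0.13 to 1.49, adjusted p = 0.53). For Acta2 the difference between the sexes was -0.04, with an interval from -1.04 to 0.96 that is too wide to call the responses alike, and it was -0.41 without OOX replicate 2.

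The 9 markers were spread widely on OOX replicate 2. Set against the mean of the other 7 male arrays, its excess was 1.56 for Acta2, 0.82 for Tek, 0.69 for Pecam1, 0.66 for Rgs5, 0.37 for Flt1, 0.29 for Pdgfrb, 0.12 for Plvap, -0.07 for Cdh5 and -0.17 for Kdr. The median over all 11426 genes well above background on every array was -0.27. Of these genes 6.69% had their highest value on this array and 36.6% their lowest, the largest share of lowest values on any array. On the same basis 8 of 9 smooth muscle contractile genes and 10 of 12 other pan-endothelial markers had their highest value there. With dimmer genes included, the median excess was 1.75 over 11 smooth muscle genes and 0.78 over 15 pan-endothelial markers.

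Some genes with a large excess were named after their values were seen. Tagln (transgelin) measured 4.80 on OOX replicate 2 and 0.995 to 2.29 on the other 13 arrays, and Myh11, the smooth muscle myosin heavy chain, 4.50 and 2.07 to 3.01. Cldn5, the tight junction claudin of brain capillaries, measured 4.01 there and 0.81 to 2.00 elsewhere. Slc38a5, an amino acid transporter of brain endothelium, measured 2.74 and -1.41 to 0.26, and Abcb1a, the efflux pump P-glycoprotein, was well above background on this array alone. Vtn (vitronectin), a pericyte marker in mouse brain, measured 5.34 on it and 0.12 to 1.44 on the rest. Of the 10 genes of the barrier list, 4 were not above all other arrays: their excess was -0.14 for Mfsd2a, -0.09 for Slc2a1, -0.11 for the transferrin receptor Tfrc and 0.16 for Car4, a carbonic anhydrase.

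Markers of brain parenchyma were high on the same array. The summed level of 6 astrocyte markers, among them Gfap and Aqp4, was 92.2 times the array median on OOX replicate 2 and 32.3 to 45.8 on the other OOX arrays, against 26.0 to 77.6 in sham males. That of 8 neuron markers, among them Snap25, was 28.8 on it and 5.22 to 13.9 on the other OOX arrays, against 2.85 to 57.2 in sham males. Sham replicate 1 also had high values of both sums, 77.6 and 57.2, but its smooth muscle sum of 50.1 was the lowest of the 14 arrays. Set against the other male arrays apart from OOX replicate 2, its median excess was 0.64 over the barrier list. That excess was -0.51 over smooth muscle genes and -0.35 over the other pan-endothelial markers, beside -0.22 over all genes. The barrier list was thus high on OOX replicate 2 and on sham replicate 1, while the smooth muscle list was high on the first only. Of 10 epithelial markers only 4 (Kl, Clic6, Slc4a5 and Prlr) were not saturated on any array, and their median excess on OOX replicate 2 was -0.46, beside -0.27 over all genes. The part of these cell types in the values of the vascular markers was not tested.

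**Figure D3:**
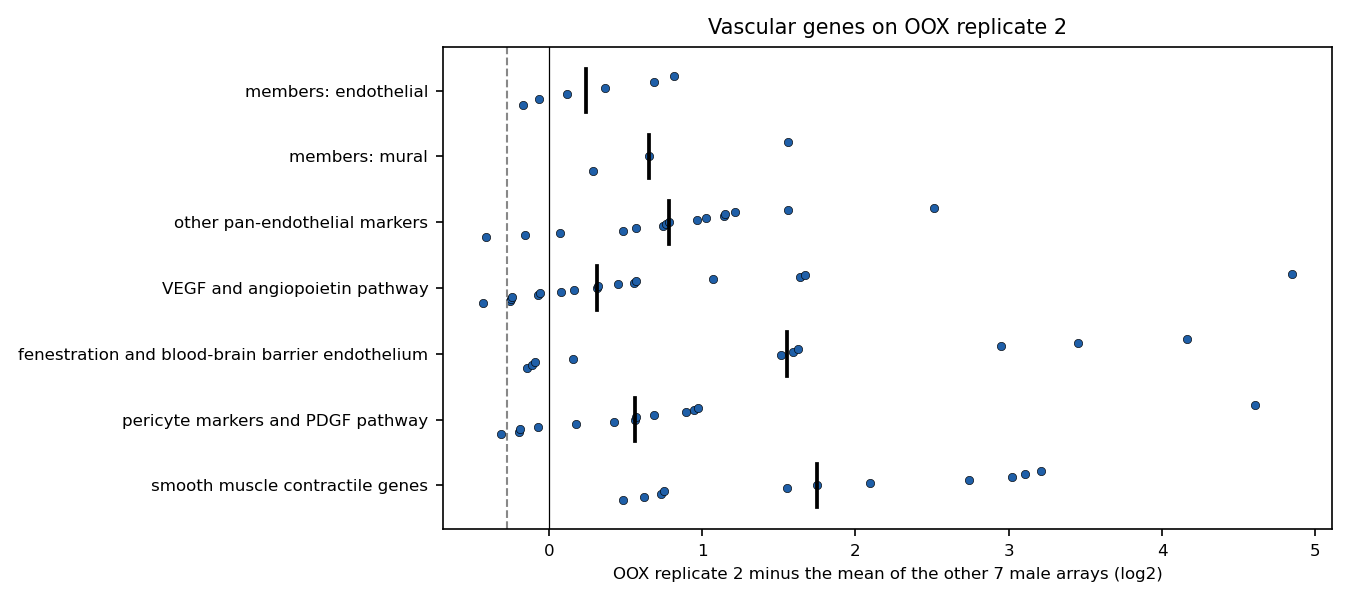
OOX replicate 2 minus the mean of the other 7 male arrays (x axis, log2) for each gene (points) of the 2 marker lists and the 5 other vascular lists (rows); black bars are list medians and the dashed line is the median of all genes, -0.27. Smooth muscle genes are all above 0, with a median of 1.75, and the barrier-associated endothelial list splits into genes near 0 and genes up to 4.16 higher; the point at 4.85 in the VEGF list is Vegfb.

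Beyond the 9 markers, 5 further lists of vascular genes were read in the same fits. Of 15 other pan-endothelial markers (20 listed), 0 passed in either sex or in the difference between the sexes; at an unadjusted p under 0.05 stood 3 in females, 0 in males and 1 in the difference, against 19.9%, 6.88% and 10.3% of all genes. Without OOX replicate 2 there were 3 in males, against 7.84%. Their median difference was 0.02 in females, beside -0.07 over all genes, and -0.08 in males. Without OOX replicate 2 the male median was -0.40, with 14 of 15 below 0, beside 0.07 over all genes. That array was high for most of these genes, so leaving it out lowers the male differences. On OOX replicate 3, 9 of the 12 that were well above background everywhere had their lowest value, against 2.71% of all genes. Sox17, an endothelial transcription factor, was well above background in all 3 OVX females (-3.44, -3.81 and -3.58) and in none of the sham females, with an adjusted p of 0.11. Of all spots, 85.3 to 87.2% were well above background in OVX females and 79.7 to 82.7% in sham females. The flag thus differed between these groups over the whole array. Selp (P-selectin) was not well above background on any array. In males the smallest p-values of the list were those of Sele (E-selectin), -0.63 (SE 0.42), and Icam2, -0.28 (SE 0.30), with adjusted p-values of 0.83 and 0.94. Without OOX replicate 2 their differences were -0.69 and -0.54, and without OOX replicate 3 they were -0.35 and -0.08.

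Of 17 VEGF and angiopoietin pathway genes, 2 passed in females, both lower: the co-receptors Nrp1 and Nrp2, which bind VEGF and semaphorins beside the receptor kinases and are also made by cells other than endothelium. Nrp1 measured 1.21, 0.95 and 0.70 in OVX females, against 1.94, 2.10 and 1.69 in sham females. Nrp2 measured -3.50, -3.47 and -3.63 in OVX females, against -2.50, -2.27 and -2.75 in sham females. Both fell in all 3 OVX pools below all sham pools, by 0.96 (SE 0.18) and by 1.03 (SE 0.16) on the log2 scale, each with an adjusted p of 0.040, where 4.40% of all genes passed downwards. In males Nrp1 measured 1.05, 1.13, 0.80 and 1.32 in OOX males, against 1.07, 1.29, 1.46 and 1.41 in sham males, and the groups overlapped. Nrp2 measured -3.40, -2.97, -3.46 and -3.09 in OOX males, against -3.53, -2.48, -3.27 and -3.75 in sham males, the last not well above background, and these overlapped too.

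The receptors that the neuropilins assist, Kdr and Flt1, did not pass in females, and the fall was not tested against them. The difference between the sexes was 0.73 for Nrp1 (SE 0.24, unadjusted p = 0.0093, adjusted p = 0.31) and 1.05 for Nrp2 (SE 0.36, unadjusted p = 0.012, adjusted p = 0.34), so neither passed. Over the alternatives run the female difference ranged between -1.09 and -0.49 for Nrp1 and between -1.27 and -0.36 for Nrp2. The female calls were close to the threshold, with an adjusted p there of 0.027 to 0.62 for Nrp1 and 0.027 to 0.53 for Nrp2. Nrp1 missed it without any 1 of the 6 female arrays, and Nrp2 without any but sham replicate 2. On the 1 slide with both groups, Nrp1 stood at -0.49 and Nrp2 at -0.75 (1 pool each). In a fit with a scan day term they stood at -0.70 and -0.99, with adjusted p-values of 0.31 and 0.28. In males the smallest p-values of this list were those of Angpt1, the mural ligand of Tek, 0.69 (SE 0.24, adjusted p = 0.61), and Vegfd, a ligand of lymphatic receptors, -0.52 (SE 0.21, adjusted p = 0.65). With OOX replicate 2 left out, the differences of Angpt1 and Vegfd were 0.50 and -0.49.

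Of 10 genes of blood-brain barrier endothelium (11 listed), 0 passed in either sex or in the difference. At an unadjusted p under 0.05 stood 3 in females, against 19.9% of all genes, and 0 elsewhere. Without OOX replicate 2 there were 3 in males, against 7.84%. In females the smallest p-values were those of Slco1a4, an organic anion transporter, 0.41 (SE 0.16, adjusted p = 0.19), and Foxq1, 0.92 (SE 0.37, adjusted p = 0.21), which was well above background on 1 sham array of 3. In males they were those of Mfsd2a, a lipid transporter of the blood-brain barrier, -0.37 (SE 0.19, adjusted p = 0.70), and the glucose transporter Slc2a1, 0.25 (SE 0.13, adjusted p = 0.71). The male median of the list was 0.32, and -0.02 without OOX replicate 2.

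Of 13 pericyte and PDGF pathway genes (14 listed), 0 passed in any comparison, with 4 in females, 0 in males and 3 in the difference at an unadjusted p under 0.05, against 19.9%, 6.88% and 10.3% of all genes. Pdgfb, the endothelial ligand that recruits pericytes, measured -0.996, -0.58 and -1.01 in OVX females, against -1.20, -1.26 and -1.29 in sham females, a difference of 0.39 (SE 0.16, adjusted p = 0.21) without overlap. Pdgfd, another ligand of the receptor Pdgfrb, differed by -0.64 (SE 0.25, adjusted p = 0.20). The 2 ligands stood on opposite sides of their shams while the receptor stood at 0.05. In males Pdgfb differed by -0.24 (SE 0.14) and the pericyte proteoglycan Cspg4 by 0.31 (SE 0.23), the second by 0.08 without OOX replicate 2.

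Of 11 smooth muscle contractile genes (12 listed), 1 passed in females, where 1.81% of all genes passed upwards: Myocd, myocardin, the coactivator that acts with serum response factor at CArG boxes, the element searched for in the Acta2 promoter above. Myocd measured -2.54, -2.46 and -2.25 in OVX females, against -3.67, -3.93 and -3.11 in sham females. It rose by 1.15 (SE 0.23, adjusted p = 0.041), above all sham pools in all 3 OVX pools. Over the alternatives the difference ranged between 0.28 and 1.38 and the adjusted p between 0.028 and 0.58. Without any 1 of the 6 female arrays Myocd missed the threshold. Within the slide it stood at 0.56 (1 pool each), and in a fit with a scan day term at 1.03, with an adjusted p of 0.31.

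Apart from Myocd, none of the contractile genes passed in females. The list median was 0.14, with 8 above 0 and 3 below, and Myh11 measured 2.60, 2.69 and 2.09 in OVX females, against 2.60, 2.96 and 2.81 in sham females. Cnn1, calponin, was well above background in 2 of 3 OVX females and in none of the sham females, whose arrays had fewer such spots in general. In males Myocd differed by 0.60 (SE 0.26, adjusted p = 0.65) and Myl9 by 0.28 (SE 0.21, adjusted p = 0.87). With OOX replicate 2 left out, these differences were 0.48 and 0.11. All 11 contractile genes had male differences above 0, with a median of 0.35, and without OOX replicate 2 there were 4 above 0 and the median was -0.12.

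**Figure D4:**
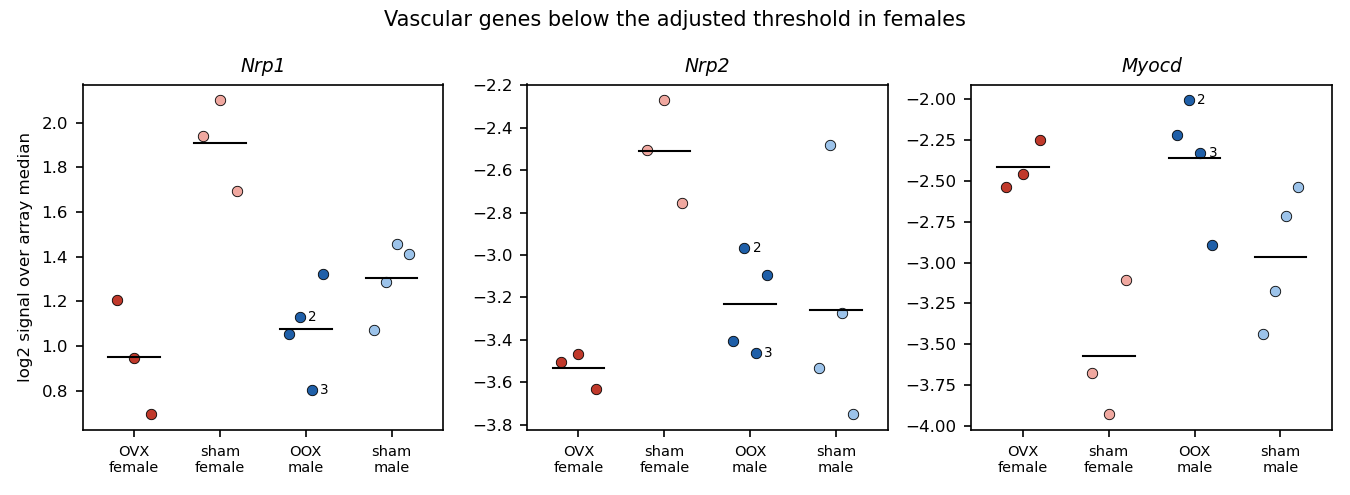
Log2 signal over the array median (y axes, own scale) of Nrp1, Nrp2 and Myocd, the 3 genes of the other vascular lists that passed in females, in OVX females, sham females, OOX males and sham males; points are arrays and lines group means, and 2 and 3 mark those OOX replicates. OVX and sham pools do not overlap for any of the 3 (Nrp1 0.70 to 1.21 against 1.69 to 2.10), and OOX and sham males overlap for all 3.

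Of the markers of other cells, 1 gene passed in females, Mgp (matrix Gla protein) of the fibroblast list, which fell by 0.82 (SE 0.18, adjusted p = 0.049), where 4.40% of all genes passed downwards. All 9 fibroblast markers had differences below 0 in OVX females, with a median of -0.46, and their summed level was 290.2 to 512.7 in OVX females, against 480.1 to 574.3 in sham females. At an unadjusted p under 0.05 (limma) stood 5 of these 9, all lower, against 19.9% of all genes in either direction. Neuron markers had a median of -0.90, with sums of 4.54 to 16.1 in OVX females, against 6.67 to 40.2 in sham females. The 4 epithelial markers that were never saturated had a median of -0.20 and sums of 270.6 to 341.3 in OVX females, against 320.9 to 422.5 in sham females. The sums of all 3 lists overlapped between the groups. Macrophage markers, Csf1r among them, had a median of 0.16 and oligodendrocyte markers, of which Mbp was saturated on 8 arrays, 0.01. Of 5 red blood cell markers, the globins Hba-a1 and Hbb were saturated on all 14 arrays and have no usable difference, and Alas2, Slc4a1 and Epb42 had differences of 0.72 to 0.91 that did not pass. The part of these cells in the values of Acta2, Rgs5, the neuropilins and Myocd was not tested. In males the fibroblast median was 0.29, the neuron median 0.52 and the astrocyte median 0.33, and without OOX replicate 2 they were 0.22, 0.15 and -0.04.

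The genes whose pattern over the arrays was most like that of the markers were sought outside all lists. Over the 14 arrays, with each group's mean removed, the 5 genes most like the mean of the 6 endothelial markers were Krt76 (Pearson r = 0.96), She, Nrros, Dysf and Cyyr1 (0.93), out of 11313 candidates. Those most like the mean of the 3 mural markers were Klf6 (0.97), Olfml2a, Tbx18, Dennd1c and Gpsm3 (0.92). TBX18 is a transcription factor of mural cells in the mouse, and r for Tbx18 was 0.88 when OOX replicate 2 was dropped after the group means were removed. Whether the other genes are made by vessel cells was not tested. These correlations describe 14 arrays that share OOX replicates 2 and 3 as extremes. With OOX replicate 2 dropped in that way they were 0.92 to 0.95 for the endothelial 5 and 0.86 to 0.94 for the mural 5. The OOX means still included that array, so these values are not free of it.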

How the data were processed

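Arrays of 1 colour (Cy3) from 14 pools of RNA were analysed. The deposited scanner files hold fluorescence intensity, from which the authors' software, Agilent Feature Extraction, had subtracted background. A table of log2 values that the authors had centred was deposited too and served as an alternative. Control and outlier spots were left out, spots of a probe averaged, and the log2 signal was taken minus the array median. Probes were named by accession through RefSeq (GRCr8, names and promoters only; the arrays were annotated on rn4): 18004 of 30367 probes gave 15154 genes, and 12363 were unnamed. Of several probes the brightest was used.

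Groups were compared within each sex with limma 3.58.1 (R 4.3.3), two-sided, and between the sexes over all arrays, with Benjamini-Hochberg adjustment at 0.05. The fits were checked on simulated arrays that used 1 spread per gene, pooled over the groups. Of 100 changes of 1 log2 unit, 12 were recovered in females, 48 in males and 16 in the difference. Of 100 changes of 2 log2 units, 70, 82 and 67 were recovered. Because the spread was pooled, these counts do not rank the real comparisons by power. Genes named were every marker and, from 5 further vascular lists, those that passed and the 2 smallest p-values in each comparison, with the 5 likest genes per cell class; other cells' markers were read as counts, medians and sums. A few genes outside this rule were named after their values were seen: those far apart on OOX replicate 2, and Mgp and 3 red blood cell genes. The markers and lists were chosen with earlier results of these data known. The alternatives were other scalings, background corrections, filters, blocks, weights, the methods' t-test and leaving out each array. Since the files held no mean signal, the normexp alternative used the median signal and a median background. Array number limits the precision.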

Additional observations from a re-analysis of the deposited data

Results flagged for a closer look

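Single far values were sought in the groups of 4 male pools. Over the genes named by rule and the summed lists 6 of 84 tests were positive, all of them sums, and chance gives about 1 in 20. The summed level of the 3 mural markers was 26.1 times the array median on OOX replicate 2, against 15.2 to 16.9 on the other OOX arrays, and that of the 11 smooth muscle contractile genes was 153.4 on it, against 60.8 to 69.1. The summed level of the 6 endothelial markers was 118.7 on sham male replicate 1, lower than on the other sham male arrays (163.8 to 164.7). Plvap and Kdr, at 5.99 and 5.59 log2 units on that array, make up most of this sum, and Pecam1 came next at 2.27. Sham male replicate 1 also had sums far above the other sham male arrays for neuron markers (57.2, against 2.85 to 8.65), astrocyte markers (77.6, against 26.0 to 33.0) and oligodendrocyte markers (366.1, against 161.8 to 186.4), the last with Mbp saturated on this array and on no other sham male array.

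Over 11 genes named outside the rule, of which 7 were picked for their values on single arrays, 6 of 22 tests were positive. The picked genes were tested on the values they were picked for, so their positive tests carry no weight as evidence. On OOX replicate 2, Tagln was 4.80, against 1.43 to 1.87 on the other OOX arrays, Myh11 4.50, against 2.07 to 2.22, and Cldn5 4.01, against 0.99 to 1.20. Vtn was 5.34, against 0.40 to 1.08, and Abcb1a -1.73, against -6.48 to -6.11 where it was not well above background. Alas2, an enzyme of heme synthesis in red cells, was 3.02 on OOX replicate 3, lower than on the other OOX arrays (3.98 to 4.12). No named gene passed the test of a difference between the sexes.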

How the results depend on the processing

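None of the 9 markers passed under any alternative in any comparison. The count of all genes that passed moved more. In the female comparison (942) it was 64 with quantile normalization, 112 with normexp, 188 with a filter on dim probes, 229 with all 4 groups in 1 fit, 14 with scan day as a block, 3 by the methods' t-test with adjustment and 0 with slide as a block (limma; 905 at an unadjusted p under 0.05). Without 1 array each it ranged between 2 (without OVX replicate 1 or 2) and 950 (without sham replicate 2), and was 16 or less without any of the 5 arrays other than sham replicate 2. In the male comparison (13) it was 0 with normexp, 0 with all groups in 1 fit and 0 by the methods' t-test (2604, 1195 and 1125 at an unadjusted p under 0.05), 48 with slide as a random block, 27 with array weights and 6 to 12 without 1 array each. For the difference between the sexes (38) it was 83 with the 75th percentile, 64 with quantile normalization, 69 with the value table, 59 with the filter, 10 with slide as a block, 83 with slide as a random block, 135 with array weights and 19 to 49 without 1 array each. The cause was not tested. Higher calls were 275 of 942 in females and 37 of 64 with quantile normalization, and for the difference 28 of 38, against 44 of 83 with the 75th percentile.

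Replicate numbers did not pair the pools (correlation of same-numbered deviations -0.39 to 0.21). With the replicate block 0 genes passed in females (3157 at an unadjusted p under 0.05), 8 in males and 15 in the difference, and Nrp1, Nrp2 and Myocd each had an adjusted p of 0.073.

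Values that changed sign were mostly small or came with the slide terms. In females Flt1 was 0.081 with the 75th percentile, 0.054 with the value table, 0.27 with slide as a block, 0.21 with scan day and 0.009 with array weights; Cnn1 was -0.052 with normexp and Pecam1 -0.011 with slide as a random block. In males, slide as a block gave Kdr 0.52, Flt1 0.095, Plvap 0.31, Pdgfrb 0.085 and Sele 0.49; normexp gave Pdgfrb 0.042, and slide as a random block gave Cdh5 -0.058. In the difference, normexp gave Acta2 0.08 and Selp -0.081, the mean over probes gave Mylk -0.006, slide as a block gave Sele 0.59 and Mfsd2a 0.014, slide as a random block gave Plvap -0.003, scan day gave Kdr -0.011 and array weights gave Plvap -0.12 and Kdr -0.069.

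Without 1 array each, the values whose sign changed had these ranges. In females Pecam1 ranged over -0.12 to 0.223, Cdh5 -0.024 to 0.148, Flt1 -0.108 to 0.148 and Pdgfrb -0.12 to 0.33. In males Cdh5 ranged over -0.067 to 0.137, Kdr -0.29 to 0.003, Pdgfrb -0.134 to 0.057 and Rgs5 -0.002 to 0.408. In the difference Cdh5 ranged over -0.127 to 0.08, Kdr -0.078 to 0.215, Plvap -0.023 to 0.358, Pdgfrb -0.374 to 0.073 and Acta2 -0.412 to 0.136.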

Other observations

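The probe of Vegfb, a ligand of Flt1, had values of 2 kinds: 4.43 to 4.97 on 8 arrays (all 3 OVX females, sham female replicate 2, OOX replicates 1 and 2 and sham male replicates 2 and 3) and -4.80 to -1.06 on the other 6, of which OOX replicates 3 and 4 were not well above background. High and low values occurred within 3 of the 4 groups.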
